A study of Mus musculus with 48 samples.

Results

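The 4 genes described here are Sprr2a1, Sprr2a2, Sprr2a3 and Sprr1a, members of the small proline-rich family, followed across the jejunum of knockout and control mice over the circadian day. They were found as the 4 rows of the count table, out of 55401 gene IDs, whose Ensembl ID carries these symbols. They were chosen from earlier results of these data: the 3 Sprr2a genes were among the largest rises in knockout mice and were higher at each of the 6 times. Genotype differences of the 4 genes are therefore given as a description with a standard error (SE) and no test. How Sprr1a came to be chosen is not recorded, so its daily pattern is described without a test as well.

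Small proline-rich proteins were first known as building blocks of the cornified envelope, the crosslinked protein shell of squamous epithelia such as skin, where transglutaminases join them to loricrin and involucrin. In the gut, which has no such envelope, the Sprr2a genes are expressed by the simple epithelium. Mouse work has linked intestinal Sprr2a to bacterial colonisation and to type 2 cytokines, and has shown that the protein can kill Gram-positive bacteria. Sprr1a is better known as a gene induced by stress and injury, in gut after resection and in injured nerve.

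RNA was taken from whole jejunum, the part of the small intestine between duodenum and ileum. The knockout mice carry the genotype written Bmal1iec-/- in the labels, which in this study stands for loss of Bmal1 in intestinal epithelial cells, and the control mice carry floxed alleles (bmal1fl/fl). Both were sampled in constant darkness every 4 h from CT1 to CT21, where CT stands for circadian time, in hours of the internal day. The labels give no Cre driver, age or sex, and do not state that different libraries are different mice, so a p-value here measures the spread among samples, which may be technical. There were 4 libraries per genotype and time, and 3 for knockout CT9, in all 47 of the 48 labelled samples; the other one, of knockout CT9, was not analysed here.

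Total counts were 4.79 to 6.91 M (mega, the SI prefix) in the 23 knockout libraries and 4.34 to 6.06 M in the 24 control libraries. Levels are given as CPM, a gene's counts per M of the summed counts of the 15646 genes that passed a filter on low counts, after scaling of the libraries. A count of 0 allows up to 3 counts, or 0.434 to 0.692 per M of a library's total. Arntl, the gene that encodes Bmal1, averaged 27.3 to 31.4 CPM in the 6 knockout groups, against 10.4 to 78.4 CPM in the 6 control groups, so its daily swing was small in knockout mice. Its mean over all times did not pass the test (log2 difference -0.09, SE 0.06, adjusted p = 0.317, edgeR), and whole-gene counts of whole tissue do not show which exons are lost in which cells. The summed level of 10 enterocyte markers was 24400 to 38600 CPM in knockout and 23600 to 34700 CPM in control libraries. Of 13 squamous markers 3 were at 0 in all libraries, and their sum was 2.46 to 9.84 CPM in knockout and 2.16 to 7.75 CPM in control libraries. Gene expression in 5 libraries stood apart from the rest (knockout CT1 replicates 1, 2 and 3, knockout CT21 replicate 4 and control CT21 replicate 1), with an interquartile range of log2 deviations from the median library of 0.5995 to 1.12, against 0.279 to 0.476 in the other 42. Some results that rest on them are given with and without them, and the others only with all libraries.

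All members lie on chromosome 3 (mm10, GENCODE annotation), in the stretch that holds the 17 Sprr genes of the table. Sprr2a1 (ENSMUSG00000078664.2) spans chr3:92215799-92221911, Sprr2a2 (ENSMUSG00000068893.5) chr3:92215920-92256724 and Sprr2a3 (ENSMUSG00000074445.4) chr3:92285417-92291405, all on the plus strand. Sprr1a (ENSMUSG00000050359.7) spans chr3:92483952-92485895 on the minus strand, near the far end of the cluster. The annotated starts of Sprr2a1 and Sprr2a2 lie so close that these genes share 43 exonic positions, chr3:92215920-92215962.

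The Sprr2a copies are close to indistinguishable in sequence, which bears on every value given for a single copy. The coding sequences of Sprr2a1 and Sprr2a2 were identical over all 252 bases, and that of Sprr2a3 differed at 3 positions (98.81% identity). Counted from the A of the start codon, the changes from Sprr2a1 to Sprr2a3 were G63A, G159T and A192T. They are set in capitals in both sequences, which run 5′ to 3′ from start to stop codon (chr3:92219092-92219343 for Sprr2a1, chr3:92288588-92288839 for Sprr2a3).
Sprr2a1 and Sprr2a2: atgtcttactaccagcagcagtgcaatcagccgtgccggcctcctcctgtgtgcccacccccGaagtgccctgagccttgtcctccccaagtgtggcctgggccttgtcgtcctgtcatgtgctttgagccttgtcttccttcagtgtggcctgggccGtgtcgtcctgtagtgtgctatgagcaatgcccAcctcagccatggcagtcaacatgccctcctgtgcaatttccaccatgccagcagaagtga
Sprr2a3: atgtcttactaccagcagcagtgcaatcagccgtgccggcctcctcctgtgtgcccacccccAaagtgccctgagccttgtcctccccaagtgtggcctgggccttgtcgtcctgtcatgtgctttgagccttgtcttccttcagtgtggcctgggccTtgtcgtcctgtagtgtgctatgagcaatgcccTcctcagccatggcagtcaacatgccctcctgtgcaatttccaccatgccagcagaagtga

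The likeness reached beyond the coding part. The longest stretch shared without a difference between the transcripts of Sprr2a1 and Sprr2a2 was 1392 bases, against 273 bases between Sprr2a1 and Sprr2a3. Of all 75-base stretches, 5.74% of those in Sprr2a1 and 5.34% of those in Sprr2a2 occurred in no other annotated transcript, against 52.5% in Sprr2a3 and all of those in Sprr1a. At 150 bases these shares were 10.4% in Sprr2a1, 10.98% in Sprr2a2 and 81.0% in Sprr2a3, and again all in Sprr1a. No source used here states the read length or how reads with several matches were treated, so the split among the copies is uncertain, and their sum (called the Sprr2a sum below) is the value that depends least on it. Sprr1a had no stretch of 50 bases in common with another gene.

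Of the 17 Sprr genes in the table only 5 had any count. The members held 99.9% of the counts of the family, and the fifth gene, Sprr2b, the next neighbour of Sprr2a3, had 17 counts over all knockout libraries and 1 over all control libraries. The other 12 (Sprr1b, Sprr2c-ps, Sprr2d, Sprr2e, Sprr2f, Sprr2g, Sprr2h, Sprr2i, Sprr2j-ps, Sprr2k, Sprr3 and Sprr4) were at 0 in all 47 libraries. Sprr2b was left out of the tests by the filter on low counts. All members passed that filter, but at the level it asks for (1.84 CPM) Sprr1a was found in 14 of 23 knockout libraries and only 2 of 24 control libraries, so it passed mostly through the knockout groups.

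Per kilobase of exon, levels in knockout jejunum were 17.4 CPM for Sprr2a2, 17.1 CPM for Sprr2a3, 4.99 CPM for Sprr2a1 and 2.78 CPM for Sprr1a. In control jejunum they were 4.79 CPM per kilobase for Sprr2a2, 4.06 for Sprr2a3, 1.25 for Sprr2a1 and 1.04 for Sprr1a. The order of the genes was thus the same in both genotypes on this scale, which divides by full exon length. The share of 75-base stretches found in no other transcript ran from 5.34% in Sprr2a2 to all of those in Sprr1a. How reads with several matches were counted is not known, so the order is not secure.

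In knockout jejunum the Sprr2a sum stayed high around the clock, whereas in control jejunum it was high only from late night to morning of the animals' cycle. Averaged over the 6 times, the sum was 114.9 CPM in knockout mice, against 29.4 CPM in control mice. At the control trough, CT13, it averaged 92.5 ± 19.6 CPM in knockout mice and 7.70 ± 3.86 CPM in control mice (SD, n = 4 each). At CT1 the groups were closest, at 102 ± 30.5 CPM in knockout mice and 50.4 ± 11.3 CPM in control mice (SD, n = 4 each).

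The single libraries show how far the genotypes were apart. At CT1 the Sprr2a sum was 142, 75.5, 81.0 and 108 CPM in knockout libraries, against 41.2, 45.01, 48.5 and 66.7 CPM in control libraries. At CT5 it was 124, 192, 131 and 378 CPM in knockout libraries, against 40.2, 44.02, 41.3 and 62.8 CPM in control libraries. The groups were clear of each other at both times, with knockout CT5 replicate 4 far above its group. At CT9 the sum was 119.8, 91.1 and 119.9 CPM in knockout libraries, against 31.2, 28.8, 10.4 and 20.03 CPM in control libraries. At CT13 it was 113, 105, 78.7 and 72.9 CPM in knockout libraries, against 3.82, 10.3, 11.7 and 5.01 CPM in control libraries. Here the lowest knockout library was above the highest control library by the widest margin in proportion. At CT17 the sum was 79.0, 76.1, 66.1 and 92.7 CPM in knockout libraries, against 5.13, 13.5, 8.37 and 29.3 CPM in control libraries. At CT21 it was 78.4, 79.99, 82.9 and 160 CPM in knockout libraries, against 35.9, 16.4, 46.4 and 39.6 CPM in control libraries. Within each time every knockout library was above every control library. The share of all genes for which this held was 9.18% (CT1), 4.44% (CT5) and 6.61% (CT9) in the first part of the cycle. It was 7.78% (CT13), 5.37% (CT17) and 1.9% (CT21) in the later part. Over all times 1 of 24 control libraries (CT1 replicate 4) was above the lowest knockout library (CT17 replicate 3).

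**Figure D1:**
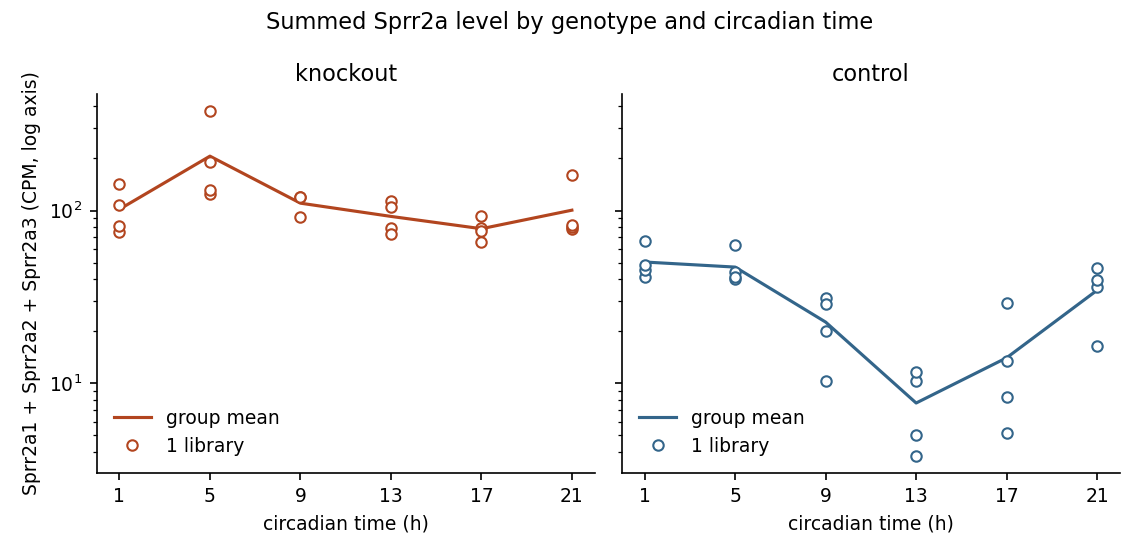
Summed CPM of Sprr2a1, Sprr2a2 and Sprr2a3 (vertical axis, log scale) by circadian time in hours, with knockout libraries in the left panel and control libraries in the right one; circles are single libraries and lines join group means. Knockout group means lie between 78.5 and 206 CPM, while control group means fall to 7.70 CPM at CT13.

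Ordered by mean, the 6 knockout groups came before the 6 control groups: knockout CT5 (206 CPM), CT9 (110 CPM), CT1 (102 CPM), CT21 (100.4 CPM), CT13 (92.5 CPM) and CT17 (78.5 CPM), then control CT1 (50.4 CPM), CT5 (47.1 CPM), CT21 (34.6 CPM), CT9 (22.6 CPM), CT17 (14.1 CPM) and CT13 (7.70 CPM). Knockout CT5 did not overlap with the next group. All other neighbours in this order overlapped in their single libraries. Without knockout CT21 replicate 4, which stood apart, the mean of knockout CT21 was 80.4 CPM, below that of knockout CT13. The highest group mean was 2.63 times the lowest in knockout mice and 6.54 times the lowest in control mice.

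Sprr2a2 contributed the most counts over all libraries, and no control library reached the lowest knockout library at any time. Its 23 knockout libraries ran from 33.2 to 97.5 CPM with a median of 42.9 CPM, against 2.31 to 32.0 CPM with a median of 14.2 CPM in the 24 control libraries. At CT13 it had 54.7, 40.9, 40.4 and 35.9 CPM in knockout libraries, against 2.61, 4.44, 5.40 and 2.31 CPM in control libraries. The difference was widest at this time, at a log2 fold change of 3.53 (SE 0.38), and narrowest at CT1, at 1.07 (SE 0.31).

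Sprr2a3 was also higher in all knockout than in all control libraries at each time, with 1 knockout library far above the rest. Its knockout libraries ran from 22.1 to 244.6 CPM with a median of 38.4 CPM, against 1.216 to 24.1 CPM with a median of 13.5 CPM in control libraries. At CT5 it had 46.7, 92.5, 48.5 and 244.6 CPM in knockout libraries, against 17.5, 23.2, 14.9 and 24.1 CPM in control libraries. The value of 244.6 CPM, from knockout CT5 replicate 4, rests on 1284 counts and is the highest of any member in any library. The log2 fold change at CT5 was 2.43 (SE 0.44) with this library and 1.63 without it. At CT13 Sprr2a3 had 45.9, 50.7, 27.4 and 25.2 CPM in knockout libraries, against 1.216, 4.79, 4.88 and 2.698 CPM in control libraries, a log2 fold change of 3.45 (SE 0.56).

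Sprr2a1 had the fewest counts of the 3 copies, and few were left in control jejunum in the middle of the cycle. At CT9 it had 18.4, 12.2 and 19.0 CPM in knockout libraries, against 1.69, 1.36, 0.160 and 1.52 CPM in control libraries. At CT13 it had 12.1, 13.9, 10.8 and 11.8 CPM in knockout libraries, against 0, 1.06, 1.39 and 0 CPM in control libraries. The 4 control libraries at CT13 held 14 counts of it in all, so the log2 fold change there, 4.24 (SE 0.64), leans on few reads, and it was 5.00 without control CT13 replicate 3. At CT1 the genotypes overlapped, with 20.6, 13.0, 7.80 and 12.8 CPM in knockout libraries and 6.23, 6.78, 5.39 and 11.1 CPM in control libraries.

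Sprr1a was the faintest member. It averaged 2.24 CPM over the knockout groups and 0.837 CPM over the control groups, and no library had more than 26 counts of it. At CT17 it had 2.24, 3.45, 2.20 and 2.26 CPM in knockout libraries, against 0.331, 0.612, 0.837 and 0 CPM in control libraries. At CT21 it had 2.21, 3.86, 1.10 and 6.09 CPM in knockout libraries, against 2.53, 1.14, 2.55 and 0.985 CPM in control libraries. At CT9, CT13 and CT17 every knockout library was above every control library, as for 6.61%, 7.78% and 5.37% of all genes. The genotypes overlapped at CT1, CT5 and CT21. At CT13 the gap lay between 3 counts (knockout replicate 4) and 2 counts (control replicates 3 and 4), within the 3 counts allowed for 0. Sprr1a also passed the filter on low counts mostly through the knockout groups. Its highest group mean was that of knockout CT21 (3.31 ± 2.17 CPM), and its lowest was that of control CT13 (0.183 ± 0.212 CPM; SD, n = 4 each). Without knockout CT21 replicate 4, which stood apart, the mean of knockout CT21 was 2.39 ± 1.39 CPM (SD, n = 3), below those of knockout CT17 (2.54 CPM) and knockout CT5 (2.47 CPM). All neighbours in its order of 12 groups overlapped.

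**Figure D2:**
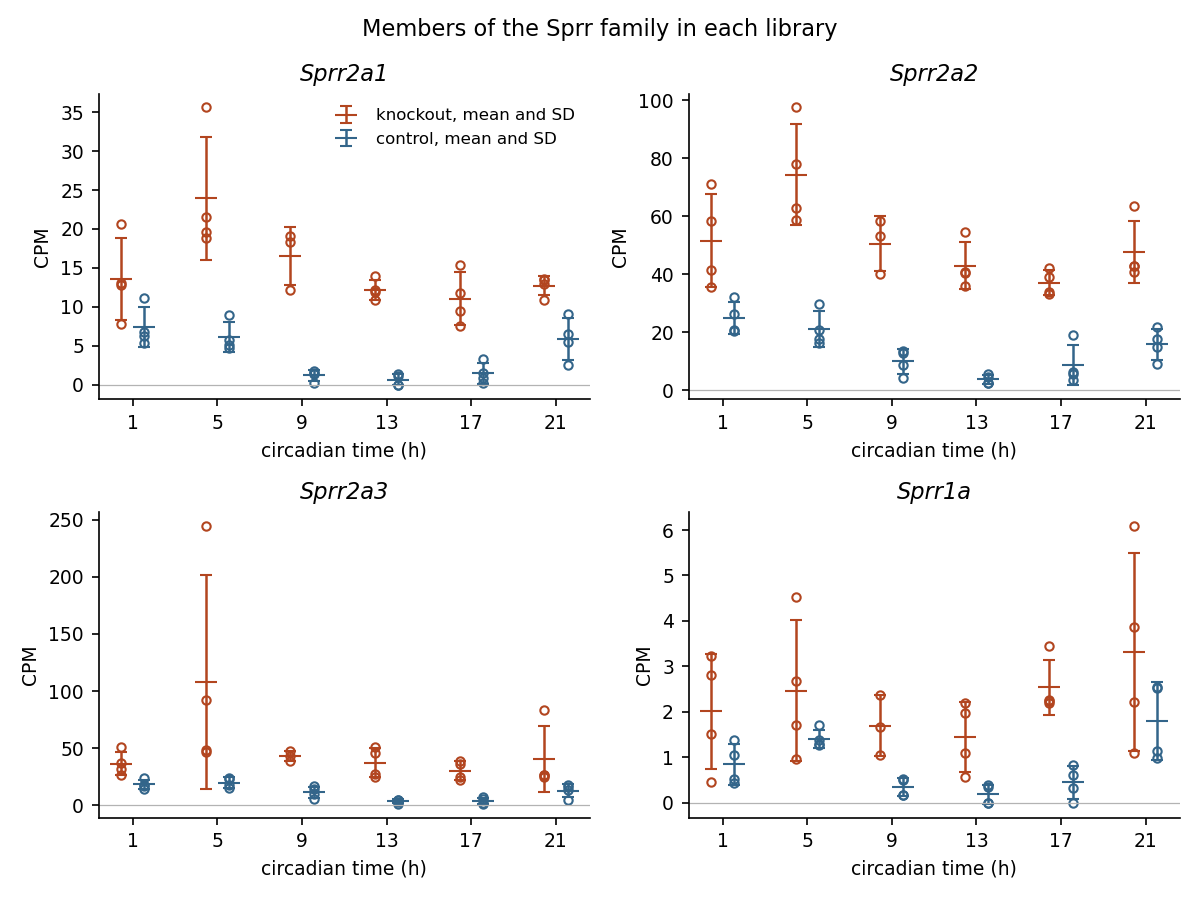
CPM of each member (vertical axes, linear, each with its own scale) by circadian time in hours; circles are single libraries, horizontal bars with whiskers are group means ± SD, and knockout is drawn to the left of control at each time. Knockout CT5 replicate 4 stands out at 244.6 CPM in the Sprr2a3 panel, and control group means are lowest at CT13 in all panels.

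Over all times together the log2 fold change was 2.49 (SE 0.20) for Sprr2a1, 2.08 (SE 0.14) for Sprr2a2, 2.23 (SE 0.20) for Sprr2a3 and 1.76 (SE 0.28) for Sprr1a. For the Sprr2a sum it was 2.18 (SE 0.16), or 4.52-fold. It was 2.13 without the 5 libraries that stood apart. The members stood at ranks 8, 12, 11 and 23 by this fold change among all 15646 genes tested, of which 23.3% differed between genotypes in either direction and 12.2% were higher in knockout mice. Just above and just below the Sprr2a genes in this order were Slc38a8 at 2.67 and Lect2 at 2.05. All members were higher in the mean at all 6 times, as were 11% of all genes. Sprr2a2 and Sprr2a3 were without overlap at all 6 times, which held for 0.185% of all genes. These figures belong to the contrast by which the genes were chosen.

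By time, the log2 fold change of the Sprr2a sum was 1.00 (SE 0.37) at CT1, 2.12 (SE 0.37) at CT5, 2.30 (SE 0.41) at CT9, 3.59 (SE 0.43) at CT13, 2.49 (SE 0.40) at CT17 and 1.55 (SE 0.38) at CT21. The value at CT17 was 3.14 without control CT17 replicate 4, the library with 29.3 CPM. Without the 5 libraries that stood apart, the value at CT21 was 1.25. At CT1 the removal leaves 1 knockout library, which gives a value of 1.06 and no check of its spread. Sprr1a showed its widest difference at CT13 too, at 2.89 (SE 0.96), but its narrowest at CT5, at 0.81 (SE 0.51).

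**Figure D3:**
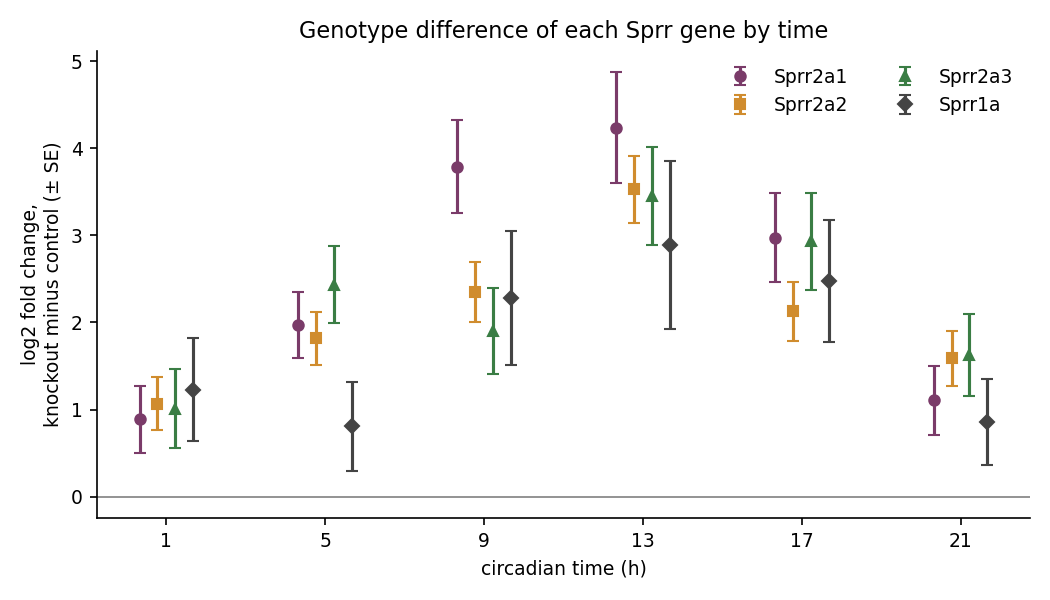
Log2 fold change, knockout minus control, of each member (vertical axis, 0 meaning no difference) by circadian time in hours; symbols are fitted values and whiskers are ± SE. All symbols lie above 0, and for each gene the largest is at CT13, from 2.89 for Sprr1a to 4.24 for Sprr2a1.

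The genes were chosen by the difference between the genotypes and not by variation over the day within a genotype, which was tested. A cosine and sine of 24-h period were fitted for each genotype, and amplitude is the distance from mid-level to fitted peak on the log2 scale. In control jejunum the Sprr2a sum had an amplitude of 1.304 (SE 0.17) with a peak at CT2.01 (SE 0.50 h), and the rhythm passed the test (adjusted p = 1.77e-06, edgeR). In control mice all 3 copies were rhythmic when tested singly, where 20.5% of all genes were (adjusted p = 2.17e-08 for Sprr2a1, 1.27e-07 for Sprr2a2 and 0.000356 for Sprr2a3, edgeR). Since the copies may share reads, they are not separate witnesses. The test of any difference between the 6 times, which assumes no shape, also passed for the sum in control mice (adjusted p = 2.92e-05, edgeR), as it did for 14.8% of all genes.

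In knockout jejunum the fitted daily swing of the Sprr2a sum was shallower, and whether it passed depended on which libraries were kept. The amplitude of the Sprr2a sum was 0.55 (SE 0.15) with a peak at CT5.08 (SE 1.09 h), with adjusted p = 0.0266 (edgeR), and 14.6% of all genes were rhythmic in this genotype. Without knockout CT5 replicate 4 the amplitude was 0.35 and the adjusted p was 0.18 (edgeR), and without knockout CT5 replicate 2 they were 0.52 and 0.0532 (edgeR). The test of any difference between times gave adjusted p = 0.0453 for the sum in knockout mice, and 0.417 without knockout CT5 replicate 4 (edgeR), where 12% of all genes passed. This call was lost in 29 of 47 cases when single libraries were left out. By copy, the knockout amplitude was 0.49 (SE 0.15) for Sprr2a1, 0.41 (SE 0.12) for Sprr2a2 and 0.72 (SE 0.19) for Sprr2a3, with adjusted p of 0.0501, 0.0461 and 0.0186 (edgeR). For Sprr2a3 the adjusted p was 0.23 without knockout CT5 replicate 4 (edgeR). With single libraries left out, the call changed in 16 of 47 cases for Sprr2a1 and in 24 for Sprr2a2. A rhythm in knockout jejunum was thus not secure at this number of libraries.

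The difference of the rhythm between the genotypes, amplitude and peak time together, had its lowest adjusted p for Sprr2a1. This test and that of variation of the genotype difference with time are built from the genotype differences at the 6 times, whose sign had a part in the choice of the genes, so they are not independent of that choice. Its amplitude was 0.49 in knockout mice and 1.84 (SE 0.22) in control mice, and the difference passed the test (adjusted p = 0.000121, edgeR), as it did for 1.5% of all genes. For Sprr2a2 the amplitudes were 0.41 in knockout and 1.19 (SE 0.15) in control mice (adjusted p = 0.00839, edgeR). For both copies the call held with each of the 47 libraries left out in turn, with adjusted p up to 0.000435 for Sprr2a1 and 0.0205 for Sprr2a2 (edgeR). For Sprr2a3 the amplitudes were 0.72 in knockout and 1.29 (SE 0.24) in control mice and the difference did not pass (adjusted p = 0.451, edgeR), but without knockout CT5 replicate 4 the adjusted p was 0.047 (edgeR).

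For the Sprr2a sum the difference of rhythms was at the edge of the threshold. The adjusted p was 0.0466 with all libraries, 0.128 without the 5 libraries that stood apart and 0.00531 without knockout CT5 replicate 4 (edgeR). With single libraries left out in turn it ran from 0.00531 to 0.0892 and missed the threshold in 34 of 47 cases. The test of whether the genotype difference varied with time in any shape passed for Sprr2a1 (adjusted p = 0.00189) and Sprr2a2 (0.036) and not for Sprr2a3 (0.308) or the sum (0.0913, edgeR), where 1.18% of all genes passed. That of Sprr2a2 was lost without the 5 libraries that stood apart (adjusted p = 0.149, edgeR) and in 12 of 47 cases with single libraries left out. That of the sum passed without knockout CT5 replicate 4 (0.0404), without knockout CT21 replicate 4 (0.0291) or without control CT17 replicate 4 (0.0195, edgeR).

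Sprr1a had a fitted amplitude of 0.42 (SE 0.22) in knockout mice and 1.28 (SE 0.32) in control mice. Its fitted peaks were at CT22.1 (SE 1.95 h) in knockout and CT0.35 (SE 0.91 h) in control mice. In control jejunum its mean was lowest at CT13, like those of the Sprr2a genes, but it had 0, 0, 2 and 2 counts there. It had 3, 3, 1 and 1 counts at CT9 and 2, 3, 4 and 0 at CT17, so its trough is not placed securely.

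Within the summed count, the share of Sprr2a1 spanned a narrower range in knockout than in control groups, a difference that was not tested. Sprr2a1 made up 12.7% to 14.9% of the sum in the 6 knockout groups, against 4.80% to 16.8% in the 6 control groups. At CT9 its share was 14.9 ± 1.32% in knockout mice (SD, n = 3) and 4.80 ± 2.49% in control mice (SD, n = 4), and the libraries did not overlap (13.4% to 15.9% in knockout, 1.54% to 7.56% in control). At CT21 the shares were 13.7 ± 3.69% in knockout and 16.8 ± 4.09% in control mice (SD, n = 4 each). Sprr2a2 held 40.4% to 50.5% in knockout groups and 43.3% to 61.7% in control groups, and Sprr2a3 held 36.2% to 46.9% in knockout groups and 29.5% to 51.9% in control groups. How reads that fit several copies were counted sets these shares in part, and this was not tested.

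The share of Sprr2a3 in single libraries ran from 29.07% to 64.75% in knockout and from 22.5% to 56.92% in control libraries. In knockout CT5 replicate 4, Sprr2a3 held 64.75% of the sum (1284 of 1983 counts, 95% Wilson interval 62.62% to 66.82%). In knockout CT21 replicate 4, which stood apart in its overall profile, it held 51.97% (356 of 685 counts, 48.23% to 55.69%). This was within the range of the control libraries, but the other libraries of its group held 31.69%, 32.73% and 32.08%. In knockout CT5 replicate 4 and in knockout CT21 replicate 4, the level of Sprr2a3 was far above the other libraries of the group. Sprr1a did not follow in knockout CT5 replicate 4, where it had 0.952 CPM, the lowest of its group, and was highest in knockout CT21 replicate 4, at 6.09 CPM. The intervals cover counting error only.

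**Figure D4:**
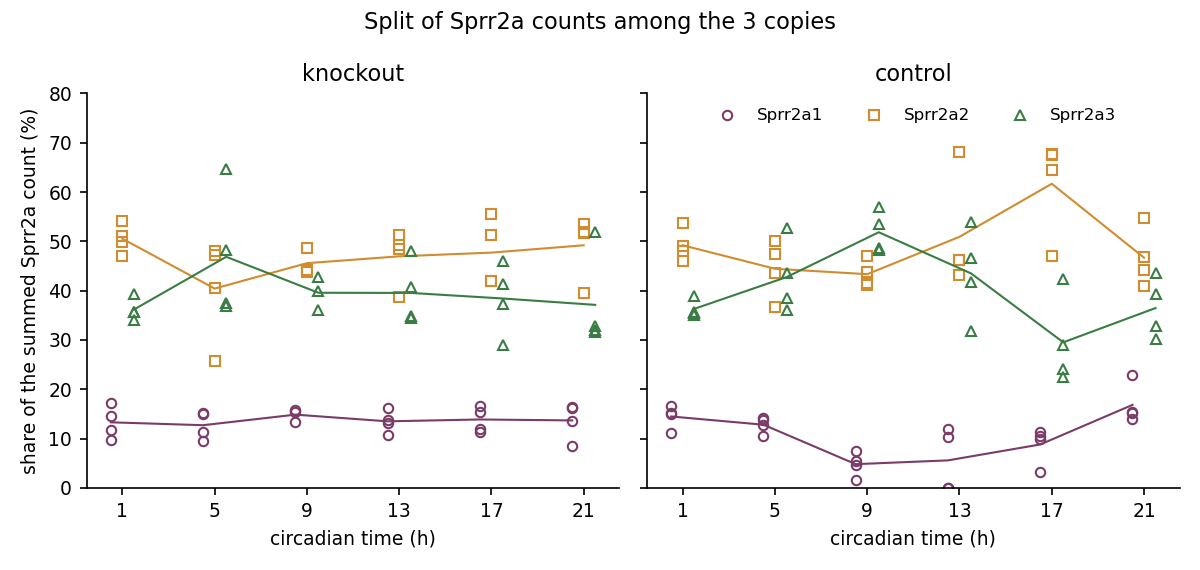
Share of each copy in the summed Sprr2a count (vertical axis, percent) by circadian time in hours, knockout in the left panel and control in the right one; symbols are single libraries and lines join group means. The Sprr2a1 share stays between 12.7% and 14.9% in knockout group means and drops to 4.80% at control CT9.

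Across the 12 group means of log2 CPM, the members ran together: Pearson's r was 0.98 between Sprr2a1 and Sprr2a2, 0.95 between Sprr2a1 and Sprr2a3, and 0.83 to 0.91 between Sprr1a and each Sprr2a copy. These points share the genotype difference by which the genes were chosen. Among the 47 libraries after each group's mean was removed, r was 0.86 between Sprr2a1 and Sprr2a2, 0.73 between Sprr2a1 and Sprr2a3 and 0.76 between Sprr2a2 and Sprr2a3, values that rest on genes whose reads cannot be cleanly parted. Sprr1a, which shares no such stretch, had r of -0.10 to 0.16 with the 3 copies there. No library had more than 26 counts of Sprr1a, so these values cannot show whether it followed the Sprr2a level within a group.

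Of 13939 genes compared, those most like the Sprr2a sum over the 12 group means were Abcg2 (r = 0.98), an efflux transporter of the apical membrane, Stom (0.97), a membrane protein of the stomatin family, Plpp1 (0.97), a lipid phosphatase, Plekhb2 (0.96) and Nipsnap1 (0.96). Over all times the log2 fold change was 0.79 for Abcg2 and 0.97 for Stom, given without a test, since likeness over these group means takes in the genotype difference. Most like Sprr1a were Insig2 (0.94), a regulator of sterol synthesis, Gjb1 (0.92), a gap junction protein, Lama3 (0.90), a laminin chain, Atp6v0a1 (0.90), a proton pump subunit, and Tspan14 (0.90). Once group means were removed, the genes that ran with the Sprr2a sum over the 47 libraries were others: Oit1 (0.68), Gch1 (0.67), the first enzyme of tetrahydrobiopterin synthesis, Prss30 (0.65), AA467197 (0.64) and Foxo6 (0.62). With Sprr1a there ran Map3k6 (0.67), Krt8-ps (0.65), Gm26532 (0.65), Zfp821 (0.64) and Gm7850 (0.64). They are the highest of many correlations over libraries that share depth and tissue makeup. Without the 5 libraries that stood apart, r with Sprr1a was 0.45 for Gm26532 and 0.53 for Gm7850.

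Promoters were examined because the members moved together. The windows of 250 bases before the RefSeq start (GRCm38.p6) were the same base for base in Sprr2a1 and Sprr2a2. Sprr2a3 shared a stretch of 222 bases with them, while the longest stretch that Sprr1a shared with any copy was 9 bases. RefSeq and GENCODE starts differ, most for Sprr2a2, at chr3:92250647 in RefSeq and chr3:92215920 in GENCODE. The window used for Sprr2a2 thus lies inside its GENCODE span. The window of Sprr2a2 (chr3:92250397-92250646, plus strand) and that of Sprr1a up to its first annotated exon (chr3:92485896-92486131, minus strand) are shown 5′ to 3′, with the match to the STAT motif (TTC and GAA with a 4-base gap) in capitals in Sprr2a2 and matches to the AP-1 motif TGANTCA and the TATA motif TATAAA in capitals in Sprr1a.
Sprr2a2: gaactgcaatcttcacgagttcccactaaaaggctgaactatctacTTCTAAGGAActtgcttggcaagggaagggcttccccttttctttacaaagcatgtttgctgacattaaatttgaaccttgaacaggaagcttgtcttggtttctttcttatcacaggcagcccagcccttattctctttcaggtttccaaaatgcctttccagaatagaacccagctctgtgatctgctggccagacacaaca
Sprr1a: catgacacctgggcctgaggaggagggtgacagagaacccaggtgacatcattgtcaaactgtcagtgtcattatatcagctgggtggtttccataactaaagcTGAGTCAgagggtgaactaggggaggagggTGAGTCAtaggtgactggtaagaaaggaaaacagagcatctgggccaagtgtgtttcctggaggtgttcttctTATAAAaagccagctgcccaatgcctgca

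Both strands were searched for 8 motifs, with positions counted from the RefSeq start. The STAT match lies 204 bases before the start of Sprr2a1 and Sprr2a2 and 176 bases before that of Sprr2a3, which also has the form with a 3-base gap at 249 bases before the start. The form with a 4-base gap occurred in 5.85% and that with a 3-base gap in 7.02% of 32851 promoters searched over the same span, and each in 0 of the promoters of 10 other Sprr genes. Sprr1a had AP-1 matches at 146 and 116 bases before the start and a TATA match at 43 bases. TATA matches occurred in 12.37% of all promoters and in 9 of 10 other Sprr promoters. AP-1 matches occurred in 6.75% of all promoters and in 8 of 10 other Sprr promoters, and in none of the 3 Sprr2a windows. The E-box CACGTG, the ROR and REV-ERB motif AGGTCA and the D-box TTANNTAA, letters known from the clock, were in none of the 4 windows, and were in 6.02%, 14.02% and 5.43% of all promoters. The short ETS core GGAA was in all 4 windows and in 93.5% of all promoters. Motif matches describe letters only.

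Genes known to act with or around the Sprr family were read from lists, chosen with earlier results of these data known, over all times together, where the median log2 difference of all genes tested was -0.01 and 12.2% of genes rose and 11% fell in knockout mice. Of the cornified envelope and crosslinking genes, 10 of 17 were tested, 1 rose, 0 fell and the median was 0.05. The riser was S100a10, the partner of annexin A2, with 482 CPM in knockout and 396 CPM in control mice (log2 difference 0.29, SE 0.07, adjusted p = 0.00146, edgeR). Pkp1, a desmosome protein, had 27.0 CPM in knockout and 29.3 CPM in control mice and did not pass (adjusted p = 0.14, edgeR). With all libraries, none of the 9 genes tested besides S100a10 passed in either direction (edgeR). With single libraries left out, Anxa1 fell in 3 of 47 cases and Cstb rose in 3. The log2 difference of Anxa1 was -0.15 with all libraries and -0.19 without the 5 that stood apart.

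Genes of the epithelial response to gut bacteria moved in both directions. Of 13 tested, 2 rose, 4 fell and 7 did not pass, with a median of -0.32. The number that fell was 2 without the filter on low counts, without control CT13 replicate 3 or without control CT17 replicate 2. Pigr, which carries antibodies across the epithelium, rose to 5334 CPM in knockout, against 4037 CPM in control mice (log2 difference 0.42, SE 0.06, adjusted p = 1.5e-06), and the cytokine gene Il18 rose by 0.36 (SE 0.07, adjusted p = 7.98e-05, edgeR). Ido1, an enzyme of tryptophan breakdown, fell to 17.3 CPM in knockout, against 40.7 CPM in control mice (log2 difference -1.216, SE 0.12, adjusted p = 6.87e-11), and Duox2, which makes hydrogen peroxide at the epithelial surface, fell by 1.21 (SE 0.33, adjusted p = 0.00636, edgeR). The other genes that fell were Nox1 and Fut2 (adjusted p = 0.0203 and 0.0493, edgeR), both under 2.5 CPM in control mice, named after their values were seen.

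Of the type 2 cytokine genes 9 of 16 were tested, 2 rose and 0 fell, with a median of 0.03. Il33, an alarmin cytokine, had 30.1 CPM in knockout and 25.0 CPM in control mice (log2 difference 0.37, SE 0.09, adjusted p = 0.00153), and Ang4, a secreted ribonuclease of Paneth and goblet cells, had 573 CPM in knockout and 450 CPM in control mice (adjusted p = 0.0464, edgeR). The call of Ang4 was lost without the 5 libraries that stood apart (adjusted p = 0.177, edgeR) and in 30 of 47 cases with single libraries left out. Stat6, which carries the signal of these cytokines, had 185 CPM in knockout and 195 CPM in control mice and did not pass (adjusted p = 0.0992, edgeR), but fell with DESeq2 (adjusted p = 0.0335) and with upper quartile scaling (adjusted p = 0.0323, edgeR). Of 12 AP-1, ETS and KLF factors tested, Fosb alone passed with edgeR and all libraries, at 7.90 CPM in knockout and 4.96 CPM in control mice (log2 difference 0.85, SE 0.21, adjusted p = 0.00192, edgeR), and the median was -0.04. Elf3, an ETS factor of epithelia, had 253 CPM in knockout and 224.1 CPM in control mice (adjusted p = 0.0605, edgeR). It passed with DESeq2 (adjusted p = 0.0488) and in 9 of 47 cases with single libraries left out.

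Of 12 villus tip genes 3 rose and 2 fell, with a median of 0.01. Gsdmd, which forms pores in membranes, rose by 0.36 (SE 0.08, adjusted p = 0.000855), as did Egfr by 0.22 and Cdkn1a by 0.24 (adjusted p = 0.061 for Cdkn1a without the 5 libraries that stood apart), and Apoc3, an apolipoprotein, fell by 0.36 (SE 0.10, adjusted p = 0.00632, edgeR). Of 16 injury and regeneration genes tested 1 rose and 5 fell, with a median of -0.11. Socs3, a feedback inhibitor of cytokine signalling, fell to 16.3 CPM in knockout, against 37.2 CPM in control mice (log2 difference -0.95, SE 0.12, adjusted p = 4.52e-08), Ly6d and Ly6a fell by 0.70 and 0.38, and the growth factor gene Ereg rose by 0.45 (SE 0.14, adjusted p = 0.0119, edgeR). Without the 5 libraries that stood apart, 3 of this list fell. Clu and Cd44 fell too with all libraries (adjusted p = 0.0318 and 0.0361, edgeR), and were named after their values were seen. Neither passed without the filter on low counts, where 3 of this list fell (edgeR).

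**Figure D5:**
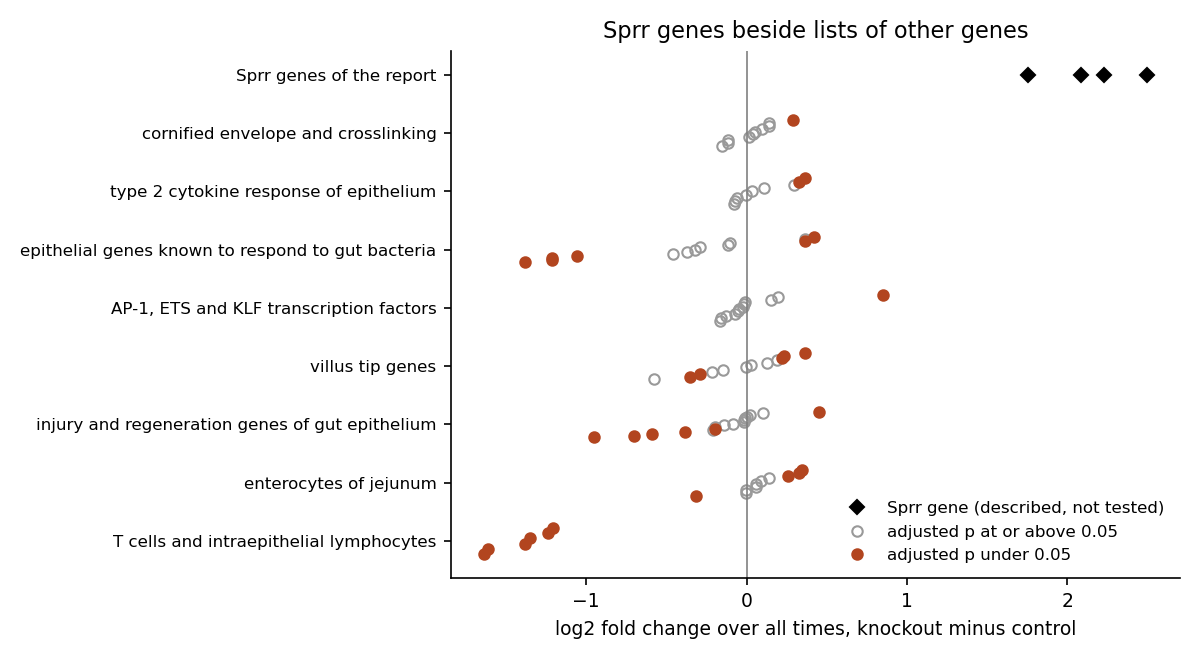
Log2 fold change over all times, knockout minus control (horizontal axis), of the 4 Sprr genes and of the tested genes of 8 lists (rows); filled circles passed at an adjusted p under 0.05 (edgeR), open circles did not, and diamonds are the 4 Sprr genes, described without a test. The Sprr genes lie between 1.76 and 2.49, and the 6 T cell markers lie on the lower side.

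Cell types that share the tissue were checked by their markers, beside 12.2% of all genes that rose and 11% that fell in knockout mice. All 6 markers of T cells and intraepithelial lymphocytes fell in knockout mice, with a median of -1.37 against -0.01 for all genes: Itgae, the integrin that holds these cells in the epithelium, had 11.6 CPM in knockout and 26.8 CPM in control mice (adjusted p = 7.25e-12), and Gzma, a granule protease, had 34.7 CPM in knockout and 108 CPM in control mice (adjusted p = 3.23e-11, edgeR). Their sum was 48.3 to 112 CPM in knockout and 93.3 to 363 CPM in control libraries. In whole tissue, fewer cells of a type and less RNA per cell cannot be told apart. Of 10 enterocyte markers 3 rose and 1 fell (median 0.07). Among the risers, Fabp1 had a log2 difference of 0.26 with all libraries, and of only 0.13 without the 5 that stood apart. The rise of Sis did not pass without the filter on low counts (adjusted p = 0.076, edgeR) or with limma-voom (adjusted p = 0.0701). Of 4 goblet markers none passed, and of 3 tuft cell markers tested Trpm5 rose by 0.66 (SE 0.09, adjusted p = 1.72e-07, edgeR). Of 4 type 2 lymphoid markers 2 were tested: Il1rl1, the receptor of Il33, rose by 0.43 (adjusted p = 0.0045), and Ccr3 had a log2 difference of -0.22 (adjusted p = 0.556, edgeR). Gata3 and Klrg1, too low to be tested, had 0.501 and 0.446 CPM in knockout mice, against 0.746 and 0.628 CPM in control mice. Of 4 eosinophil and mast cell markers tested 0 rose, 1 fell and 3 did not pass, with a median of 0.14. Prg2, a granule protein, fell by 0.65 (adjusted p = 0.00267), while the log2 differences of Siglecf, Mcpt1 and Mcpt2 were 0.27, 0.36 and 0.01 (adjusted p = 0.0654, 0.283 and 0.983, edgeR). Of 13 squamous markers only 2 were tested, and neither passed. Stomach markers summed to 0 to 1.32 CPM in knockout and 0.170 to 2.79 CPM in control libraries. The part of cell makeup in the Sprr difference was not tested.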

How the data were processed

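RNA from whole jejunum was sequenced in 47 libraries. The authors deposited unscaled counts of reads for each gene. Per the labels' protocols, extraction used a NucleoSpin kit, and the TruSeq Stranded mRNA kit, which marks strand, was used for the libraries. Per the submitters' processing notes, the build was mm10 and the tools named are STAR 2.7.5c, featureCounts 1.4.6, Trimmomatic 0.39, FastQC 0.11.5, SAMtools 1.3.1 and DESeq2 1.22.0. No source used here gives the annotation release, the strand setting or the treatment of reads with several matches.

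Symbols came from a GENCODE annotation for mm10: 54349 IDs matched with their version, 792 with another version and 260 did not match. The fits used edgeR 4.0.16 under R 4.3.3. Low genes were removed by filterByExpr with the 12 groups given (count of at least 10, total of at least 15), and libraries were scaled by TMM. A robust quasi-likelihood model had either 1 mean per group, with 35 residual degrees of freedom, or an intercept, a cosine and a sine (24-h period) for each genotype, with 41. The Sprr2a sum was fitted in a copy of the table with the 3 rows summed. P-values were adjusted by Benjamini-Hochberg over all genes tested, with a threshold of 0.05. CPM were computed from the counts after scaling. The scripts were tested on simulated data. No libraries of a group agreed within sampling noise (lowest chi-square per degree of freedom 3.23 over 69 pairs). Floors and intervals cover counting error only, since without molecular identifiers the reads are no count of molecules.

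Members and lists were chosen with earlier results of these data known. The genes named are the members, all other Sprr genes, up to 4 per list with the smallest adjusted p, the 5 most alike by each measure of likeness (mean log2 CPM of at least 1) and Arntl. Alternatives were DESeq2 1.42.0, its size factors, upper quartile scaling, no filter, limma-voom (limma 3.58.1), summed copies, each library left out, and the 5 libraries that stood apart left out. Replicate numbers follow accession order and pair nothing.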

Additional observations from a re-analysis of the deposited data

Results flagged for a closer look

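Of 55 groups of 4 libraries examined over the 4 genes and the Sprr2a sum, 6 held a library far from the other 3, with a gap to its nearest neighbour above 0.829 of the group's range, where chance gives about 1 in 20. Knockout CT21 replicate 4, which also stood apart in its overall profile, was high in Sprr2a2 (63.5 CPM), Sprr2a3 (83.4 CPM) and the Sprr2a sum (160.5 CPM). Knockout CT5 replicate 4 was high in Sprr2a1 (35.6 CPM). Its Sprr2a3 level of 244.6 CPM was below that limit, as another library of the group was raised too. Knockout CT17 replicate 2 was high in Sprr1a (3.45 CPM), and control CT5 replicate 4 was high in the Sprr2a sum (62.8 CPM).

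With all libraries, the genotypes differed in the 24-h rhythm of Sprr2a1 (adjusted p = 0.000121), Sprr2a2 (adjusted p = 0.00839) and the Sprr2a sum (adjusted p = 0.0466, edgeR). The call of the sum was lost in 34 of 47 cases with single libraries left out. The genotype difference varied with time for Sprr2a1 (adjusted p = 0.00189) and Sprr2a2 (adjusted p = 0.036, edgeR), where the call of Sprr2a2 was lost in 12 of 47 such cases. The near-identical copies are not independent of each other, and these tests are not independent of the choice of the genes, which drew on the sign of the genotype difference at each time.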

How the results depend on the processing

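No result of the genes described here turned its direction under any of the 54 other settings. Over all times, the log2 fold changes were 2.46 to 2.78 for Sprr2a1, 2.07 to 2.16 for Sprr2a2, 2.13 to 2.23 for Sprr2a3, 1.66 to 1.82 for Sprr1a and 2.13 to 2.24 for the Sprr2a sum over the settings that did not leave out a single library or sum the copies. The control rhythms and, for Sprr2a1 and Sprr2a2, the difference of rhythms passed under every setting run. No paired analysis was possible because replicate numbers follow accession order and the labels pair no samples. Causes of the changes below were not tested.

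With DESeq2 the knockout amplitude of Sprr2a1 (0.4842) and its difference between times (adjusted p = 0.04276) passed, as did the variation of the genotype difference with time for the Sprr2a sum (adjusted p = 0.01766), and 388 genes varied so, against 185 with edgeR. The knockout amplitude of Sprr2a1 also passed with upper quartile scaling (0.4835) and limma-voom (0.4731). With limma-voom the sum no longer differed between times in knockout mice (adjusted p = 0.06087), its genotype difference varied with time (adjusted p = 0.03842), and the log2 fold change of Sprr2a1 at CT13 was 5.12. Without the filter on low counts, the knockout amplitudes of Sprr2a2 (0.4033) and the sum (0.5439) missed the threshold. So did the sum's difference of rhythms, where the amplitude difference was -0.7496. The sum's knockout difference between times (adjusted p = 0.1297, edgeR) and the variation of Sprr2a2 with time (adjusted p = 0.1249, edgeR) missed it too. In that setting 1198 genes, against 1882, differed between times in knockout mice. Without the 5 libraries that stood apart, the variation of Sprr2a2 with time (adjusted p = 0.1487) and the sum's amplitude difference (-0.6392) missed it, the log2 fold change of Sprr1a at CT1 was 1.85 with a single knockout library left there, and 4231 genes, against 2312, differed between times in control mice. With the copies summed, the log2 fold changes that were given for Sprr2a1 became 2.3 at CT9 and 3.592 at CT13, the knockout amplitude was 0.5521, the knockout difference between times passed (adjusted p = 0.04535), the variation with time did not (adjusted p = 0.09125), and the amplitude difference was -0.7524.

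With single libraries left out, log2 fold changes of Sprr2a1 were 3.825 to 4.996 at CT13 and 2.546 to 3.796 at CT17, and those at CT17 were 1.841 to 2.859 for Sprr2a2 and 2.194 to 3.139 for the sum, the highest at CT17 without control CT17 replicate 4. That of Sprr2a3 at CT5 was 1.634, without knockout CT5 replicate 4, to 2.663. Knockout amplitudes were 0.3747 to 0.5449 for Sprr2a1, 0.338 to 0.4385 for Sprr2a2, 0.3628 to 0.8515 for Sprr2a3 and 0.3489 to 0.6118 for the sum, and their side of the threshold changed in 16, 24, 1 and 2 of 47 cases. The adjusted p of the knockout difference between times was 0.001679 to 0.3799 for Sprr2a3 and 0.01774 to 0.4174 for the sum. That of the variation with time was 0.001111 to 0.1022 for Sprr2a2 and 0.01949 to 0.1948 for the sum. The amplitude difference was -0.9412 to -0.4428 for Sprr2a3 and -0.9512 to -0.6731 for the sum. The number of genes called was 129 to 681 for variation with time, with 366 without knockout CT1 replicate 4 and 681 without knockout CT21 replicate 4, and 1673 to 3600 for knockout rhythms (2277 with all libraries), with 3600 without knockout CT21 replicate 1. For a difference between times in knockout mice it was 1205 without knockout CT1 replicate 1, 3274 without knockout CT1 replicate 4 and 3325 without knockout CT21 replicate 4. Of 53 list genes followed, 13 changed their call under some setting. Depth limits the folds of Sprr2a1, with 14 counts at control CT13, and of Sprr1a, with at most 26 counts in any library.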
